A study of Mus musculus with 6 samples.

Results

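The mRNAs described here encode the nuclear part of the mitochondrial respiratory chain and ATP synthase. This set was chosen with earlier results of these data known. Rows were then picked by symbol, where named like a nuclear-encoded subunit of complexes I to IV, a cytochrome c or a subunit of ATP synthase. The symbols had to begin with Nduf, Sdh, Uqcr, Cyc, Cox4 to Cox8 or Atp5, which gave 88 of 43383 rows. Of these, 84 are subunits and 4 only share a prefix with one (the assembly factors Sdhaf1 and Sdhaf2, and Atp5s and Atp5sl). A mean RPKM of at least 1 over all libraries was required for a test, and 84 of the 88 rows met it, among 13999 rows in all. The untested rows were Cox6a2 and Cox8c, listed at 0 in all 6 libraries, Cox8b and Ndufa4l2.

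RNA was sequenced from astrocytes of male mice aged 4 weeks with the genotype Aldh1l1-eGFP, in which the regulatory sequence of the astrocyte gene Aldh1l1 drives GFP. GFP-positive cells were sorted from the somatosensory cortex, after dissection of layers II to IV (upper-layer astrocytes, ULAs) and of layers V and VI (deep-layer astrocytes, DLAs), in each of 3 brains, so that there were 3 libraries per layer. All mice carried the same reporter. Layer I, the meninges, the corpus callosum and the border between layers IV and V had been discarded, so these values do not cover astrocytes of those places. The libraries held 19.7 to 29.6 M reads by the steps of the low RPKM values (reads per kilobase of mRNA and M reads), and 152 to 48860 reads lay behind each value of the 80 tested members with a mean RPKM of at least 10.

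Electrons from NADH enter the chain at complex I (NADH dehydrogenase) and those from succinate at complex II, and they pass through complex III and cytochrome c to oxygen at complex IV (cytochrome c oxidase). Complexes I, III and IV pump protons across the inner mitochondrial membrane, and ATP synthase uses the proton gradient to make ATP. Most subunits are encoded in the nucleus and imported, while a small core is encoded by mitochondrial DNA, so each complex other than complex II draws on both genomes. Astrocytes are known for a strong glycolysis, but they hold mitochondria in their processes and oxidise glucose and glutamate there.

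Nuclear-encoded subunit mRNAs were a little lower in ULAs than in DLAs across every complex, but no single member passed the test. The median difference over the 84 tested members was −0.24 on the log2(RPKM + 1) scale (lowest −0.45, highest 0.02), against −0.03 over all tested rows, and on the plain RPKM scale the median member was 15.0% lower in ULAs. The difference was below 0 for 81 of the 84 members. It was below 0 in each of the 3 brains for 72 members (85.7%), as it was for 23.2% of all tested rows. It was above 0 in each brain for 0 members, as it was for 15.2% of all tested rows. All ULA values lay below all DLA values for 35 members, a pattern that 9.27% of all tested rows shared. The opposite was seen in 0 members and in 6.59% of all tested rows. Of the tested rows that are no members, 203 have up to 1000 bases, a mean RPKM of at least 50 and a RefSeq mRNA accession. Among these 203 short and abundant rows, 73.4% were lower in each brain, and 34.5% had all ULA values below all DLA values. Removing the dependence of the difference on mRNA length, as described further on, moved the median of the members to −0.12 and the 72 to 42. In bulk RNA of sorted cells, fewer cells that carry an mRNA and less of it per cell cannot be told apart.

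With limma, 0 members passed an adjusted p under 0.05 in either direction, where 0.914% of all tested rows passed as lower and 0.714% as higher (1.63% together). Quantile normalization turned that balance over all rows, from 128 lower and 100 higher to 103 lower and 138 higher, and still called 0 members. At an unadjusted p under 0.05, 47 members were lower and 0 higher, against 10.8% and 5.64% of all tested rows. Of the 203 short and abundant rows, 47.3% were lower at that p. The 47 members became 11 once the dependence of the difference on mRNA length was removed, as described further on. The lowest adjusted p of a member was 0.0556. The 95% intervals of the 84 differences had a median reach of 0.22 to either side, which is close to the size of the median difference itself. The intervals wholly below 0 are those of the 47 members with an unadjusted p under 0.05, so they add no further count. Leaving out brain 3 gave 18 members past the threshold as lower, beside 4.91% of all tested rows, and 0 as higher, beside 3.04%. Requiring a mean RPKM of at least 5 gave 1 (Ndufs5), beside 1.62% of the rows then tested.

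**Figure D1:**
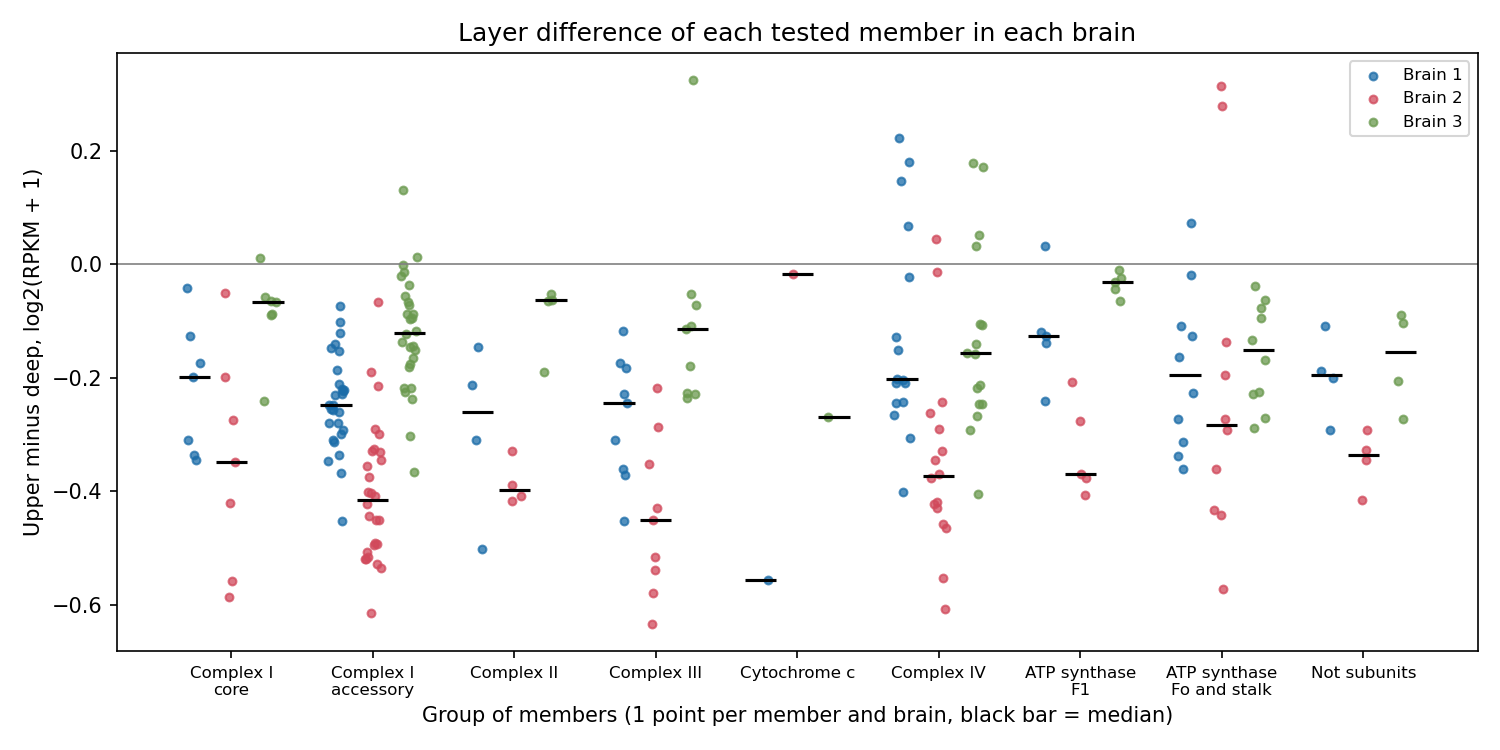
Difference between ULAs and DLAs on the log2(RPKM + 1) scale for each of the 84 tested members in each of the 3 brains, grouped by complex, with a black bar at each median. Most points lie below 0 in every group. The median over the members is farthest from 0 in brain 2 (−0.38), then in brain 1 (−0.22), and nearest in brain 3 (−0.11). Cytochrome c (Cycs alone) has another order, with −0.56, −0.02 and −0.27 in brains 1 to 3.

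The size of the difference varied among the brains more than among the complexes. Its median over the members was −0.22 in brain 1, −0.38 in brain 2 and −0.11 in brain 3, while the medians over all tested rows were −0.03, −0.02 and −0.04. The summed RPKM of the 84 subunits was 12940, 12710 and 15200 in the ULAs of brains 1, 2 and 3, and 15230, 16680 and 16550 in the DLAs. No ULA sum reached the lowest DLA sum, although the ULAs of brain 3 came within a small step of the DLAs of brain 1. Within a brain the ULA sum was 0.850, 0.762 and 0.919 times the DLA sum. Subunits took 2.66%, 2.67% and 3.00% of all RPKM in ULAs and 3.05%, 3.22% and 3.24% in DLAs. The ULAs of brain 3 held the highest ULA value for 76 of the 84 members, and the DLAs of brain 1 the lowest DLA value for 60.

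**Figure D2:**
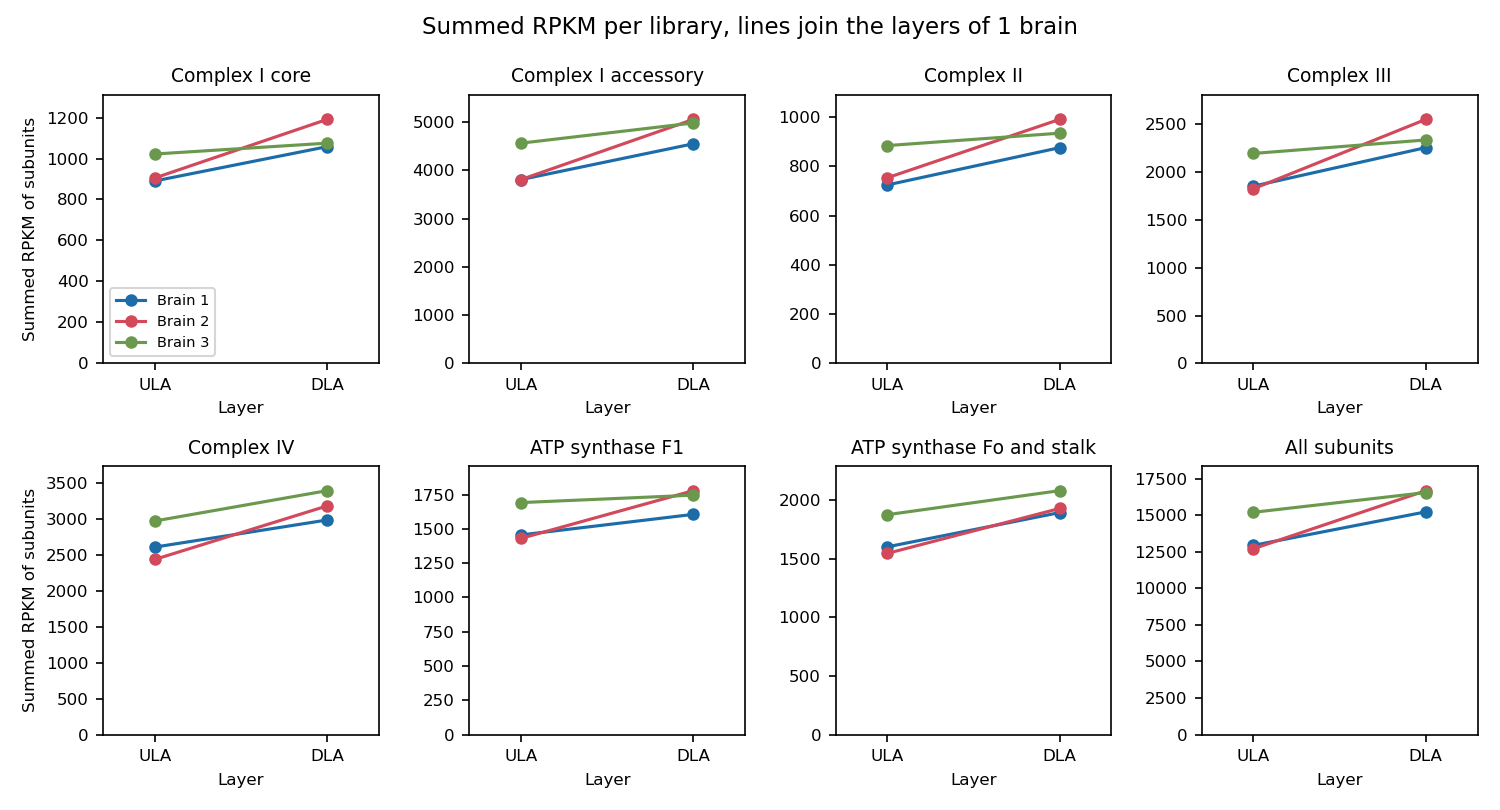
Summed RPKM of the subunits of each complex and of all 84 subunits, 1 line per brain from its ULA library to its DLA library, with axes that start at 0. Every line ascends from ULA to DLA, and the line of brain 2 is steeper than that of brain 3 in each panel.

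Complex I is the largest of these assemblies, and its mRNAs fall into core subunits that carry out electron transfer and accessory subunits that surround them. All 28 accessory members had a difference below 0 (median −0.26), and 26 of them in each brain. Among the 7 core members the median was −0.20, and 6 were lower in each brain. The accessory subunit Ndufs5, which lies on the side of the membrane facing the intermembrane space, had the lowest p of all members (chr4:123389953-123395429 on mm9, 3 exons). It stood at 57.0, 57.8 and 61.9 RPKM in ULAs, in the order of the brains, and at 78.4, 83.2 and 80.1 RPKM in DLAs. The ULA values were close to each other and well under every DLA value, with a mean 26.9% lower in ULAs, a log2 difference of −0.45 ± 0.10 (SE) and an adjusted p of 0.0556. The level of Ndufs5 is uncertain, because 45.7% of the 36-base words of its transcript also occur in the near-identical copy BC002163.

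Ndufb8, an accessory subunit of the membrane arm and the most abundant complex I mRNA, was at 353.7, 373.5 and 415.2 RPKM in ULAs and at 446.4, 525.1 and 482.7 RPKM in DLAs (chr19:44624744-44629905 on mm9, 5 exons). The layers did not overlap, and the log2 difference was −0.35 ± 0.10 (SE, adjusted p = 0.113). A second row of the table covers 20.9% of the Ndufb8 mRNA on the same strand at a higher mean of 677.8 RPKM, so reads there may have been shared. Ndufs7, a core subunit that holds the last iron-sulfur cluster before ubiquinone, was at 209.6, 218.6 and 229.7 RPKM in ULAs and at 266.3, 328.4 and 244.5 RPKM in DLAs (chr10:79712197-79719537 on mm9, 8 exons). The DLA value of brain 2 stood above the other two, and the log2 difference was −0.34 ± 0.11 (SE, adjusted p = 0.172). At the other end of the core, Ndufs1, the large iron-sulfur subunit, differed by −0.06 (adjusted p = 0.796). Ndufs1 was picked after its value was seen.

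Complex II (succinate dehydrogenase) is also an enzyme of the tricarboxylic acid cycle and the complex with no mitochondrially encoded subunit. All 4 of its mRNAs were lower in each brain. Sdhc, a membrane anchor, differed most, with 110.1, 132.7 and 139.4 RPKM in ULAs and 156.1, 174.0 and 159.1 RPKM in DLAs (chr1:173059288-173080734 on mm9, 6 exons). These values did not overlap, and the log2 difference was −0.36 ± 0.10 (SE, adjusted p = 0.116). The other anchor, Sdhd, was at 180.8, 177.1 and 224.0 RPKM in ULAs and at 224.3, 236.6 and 233.9 RPKM in DLAs, so the ULAs of brain 3 nearly met the DLAs of brain 1. The flavoprotein subunit Sdha differed by −0.18 and the iron-sulfur subunit Sdhb by −0.22, and with Sdhd at −0.26 none of the 3 passed (adjusted p from 0.240 to 0.391). Sdhb overlapped between the layers, since its ULA value in brain 3 (368.1 RPKM) lay above its DLA value in brain 1 (342.2 RPKM).

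Complex III passes electrons from ubiquinol to cytochrome c. Its 9 members had a median difference of −0.25, and 8 were lower in each brain. Uqcrfs1, the Rieske iron-sulfur protein, was at 228.6, 253.7 and 300.9 RPKM in ULAs and at 313.0, 341.8 and 352.9 RPKM in DLAs (chr13:30632181-30637185 on mm9, 2 exons). Its layers did not overlap, no word of its transcript occurs in another gene, and the log2 difference was −0.37 ± 0.09 (SE, adjusted p = 0.0942). Cyc1, the heme-bearing cytochrome c1, was the most abundant mRNA of the complex, at 329.4, 311.9 and 354.6 RPKM in ULAs and 374.2, 453.5 and 382.4 RPKM in DLAs. Its log2 difference was −0.28 ± 0.11 (SE, adjusted p = 0.241), again without overlap. The exception in the complex was the core protein Uqcrc1, named here because of its values. It was lower in ULAs in brain 1 (269.5 against 348.7 RPKM) and brain 2 (266.8 against 399.0 RPKM) but higher in brain 3 (321.8 against 256.9 RPKM).

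Cytochrome c carries electrons from complex III to complex IV, and the mRNA of its somatic gene Cycs was low. It stood at 5.01, 5.52 and 6.07 RPKM in ULAs and at 7.83, 5.60 and 7.52 RPKM in DLAs, with a log2 difference of −0.28 ± 0.14 (SE, adjusted p = 0.359). The lowest DLA value lay between the ULA values, so the layers overlapped. Of the 36-base words of its transcript, 31.0% also occur in other genes, among them 21 pseudogenes.

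Complex IV reduces oxygen, and several of its nuclear subunits exist as isoforms with different tissue use. Among its 16 tested members the median difference was −0.22, and 11 were lower in each brain. The general isoform Cox4i1 was at 421.6, 378.4 and 467.2 RPKM in ULAs and at 468.1, 519.6 and 541.3 RPKM in DLAs, with a log2 difference of −0.27 ± 0.10 (SE, adjusted p = 0.211). Cox8a, a small membrane subunit, differed most in the complex, with 216.3, 198.0 and 243.5 RPKM in ULAs and 256.1, 290.8 and 288.9 RPKM in DLAs. Neither mRNA overlapped between the layers, and the log2 difference of Cox8a was −0.35 ± 0.10 (SE, adjusted p = 0.132). Ndufa4 (−0.24), a subunit first assigned to complex I, lay close to the median. Cox6b1 (−0.29) and Cox7a2 (−0.28) lay below the median, and Cox6a1 (−0.17) somewhat above it.

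Most alternative isoforms were minor in both layers. Of the 12 tested members that were not lower in each brain, 4 were such isoforms (Cox4i2, Cox6b2, Cox7a1 and the testis isoform Cox7b2). Cox4i2, known from the lung, was 0.765% to 1.12% of the summed RPKM of Cox4i1 and Cox4i2, and the testis isoform Cox6b2 was 0.861% to 2.26% of its pair. Both were lower in ULAs in brain 2 and higher in brains 1 and 3. Of the isoforms typical of heart and skeletal muscle, Cox6a2 was listed at 0, Cox8b reached at most 0.469% of its pair, and Cox7a1 was higher. Cox7a1 stood at 19.9, 16.6 and 27.0 RPKM in ULAs and at 17.4, 21.1 and 23.7 RPKM in DLAs, a log2 difference of 0.01 (adjusted p = 0.980), with the layers overlapping fully. As a share of Cox7a1 plus Cox7a2 it was 15.1%, 13.2% and 15.3% in ULAs and 11.2%, 12.5% and 12.9% in DLAs, values that did not overlap but were not tested. Cox7a2l, which joins complexes III and IV into supercomplexes, was low, at 6.82 to 10.6 RPKM in ULAs and 8.93 to 10.2 RPKM in DLAs. Ndufa4l2, a hypoxia-induced relative of Ndufa4, reached at most 0.10 RPKM.

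In ATP synthase, the catalytic F1 part had the median nearer to 0 over the 3 brains. The median over its 5 members was −0.16, and that over the 10 members of the membrane part Fo and the stalks was −0.20. In brain 2 the order was the reverse (−0.37 for F1, −0.28 for Fo and the stalks), unlike in brains 1 and 3. The difference between the parts was not tested. Atp5b, the catalytic beta subunit and the most abundant of all members, was at 710.1, 704.6 and 841.6 RPKM in ULAs and at 781.5, 853.6 and 879.8 RPKM in DLAs. Its ULA value in brain 3 lay above its DLA value in brain 1, and the log2 difference was −0.16 ± 0.09 (SE, adjusted p = 0.427). Atp5a1, the alpha subunit, was at 262.0, 256.3 and 301.3 RPKM in ULAs and at 309.9, 339.8 and 303.5 RPKM in DLAs, so that the layers of brain 3 were nearly equal. In Fo, Atp5k, the small subunit e, differed most, with 90.2, 87.8 and 119.1 RPKM in ULAs and 116.1, 119.7 and 134.0 RPKM in DLAs. The ULAs of brain 3 again reached above the DLAs of brain 1, and the log2 difference was −0.32 ± 0.10 (SE, adjusted p = 0.151).

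The c ring of Fo is built from 1 mature protein that 3 genes encode. Atp5g3 supplied 90.1% to 93.7% of the summed RPKM of the trio over the 6 libraries. It was at 519.0, 521.0 and 642.9 RPKM in ULAs and at 607.7, 629.8 and 751.5 RPKM in DLAs, with a log2 difference of −0.24 ± 0.09 (SE, adjusted p = 0.221) and a similar size in each brain (−0.23, −0.27 and −0.22). Atp5g1 (20.4 to 25.4 RPKM in ULAs, 24.9 to 28.2 RPKM in DLAs) and Atp5g2 (22.4 to 31.5 and 18.3 to 29.9 RPKM) were far lower. Atp5g2 was one of the 3 members with a difference above 0 (0.02, adjusted p = 0.954), next to Atp5l, the subunit g (0.02), and Cox7a1.

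Sequence shared with other genes went along with low RPKM in some members. Atp5g2, Atp5l and Atp5g1 had the highest shares of 36-base words that also occur elsewhere, 87.6%, 69.4% and 67.0%, and Atp5l alone shares words with 18 pseudogenes. The 9 members with at least 40% of such words had a median level of 73.1 RPKM (17.6 to 134.7), against 162.3 RPKM (4.49 to 795.2) for the other 75, and 36 members share no word. Across the 84 members, level and shared words had a Spearman rho of −0.23, as a description over genes that also differ in length. How the authors placed reads that match several genes is not given in the sources used here, and its part in these levels was not tested.

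**Figure D3:**
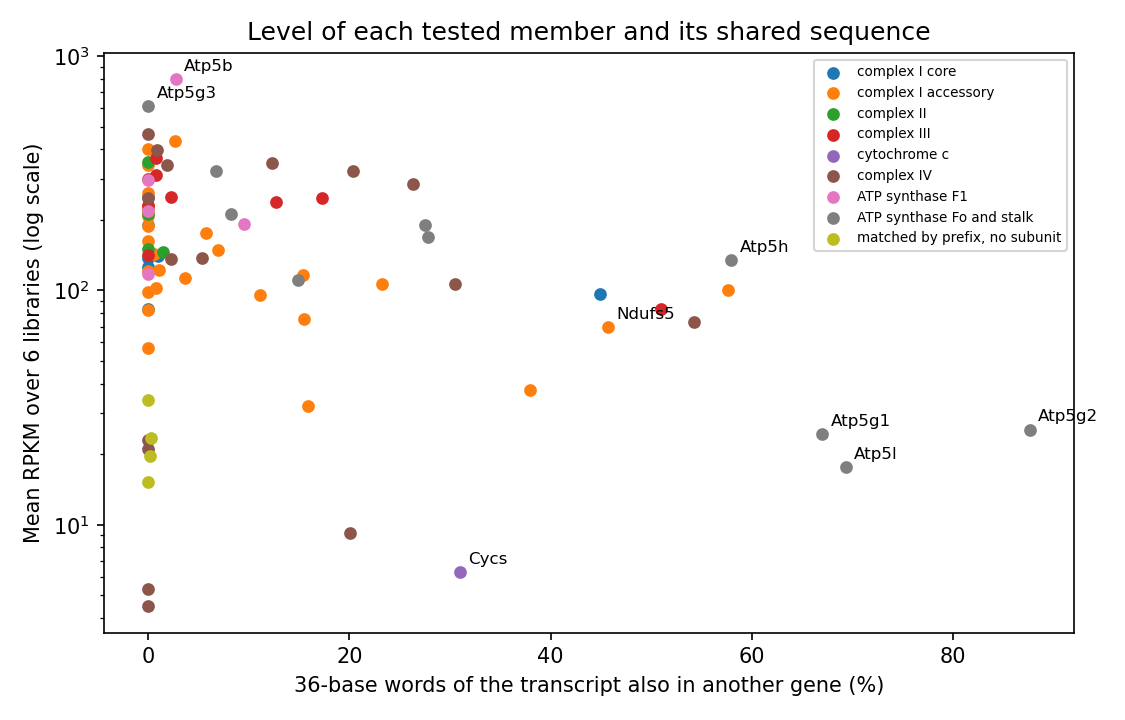
Mean RPKM of each tested member (log scale) against the percentage of 36-base words of its transcript found in other genes, 1 point per member, coloured by complex. Atp5g1, Atp5g2 and Atp5l lie at the lower right, with 67.0%, 87.6% and 69.4% of words shared and levels far under Atp5g3, which shares none.

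The promoters of respiratory chain genes are known for sites of NRF1, of ETS factors such as GABP, and of YY1, and as the members lay lower together the windows from 250 bases before to 50 after the start were searched. RefSeq windows on GRCm38.p6 were matched for 68 of the 84 tested members, and both strands were read. The NRF1 core letters GCATGCG, counted once where both strands overlap, were found in 12 members (17.65%), against 7.63% of 8233 other tested genes. The YY1 core letters ATGGCGG were found in 11 (16.2%, against 9.90%), the ETS letters CCGGAAG in 18 (26.5%, against 20.7%) and CCAAT in 31 (45.6%, against 43.3%). No searched motif contains another. A match of letters is a description and not a bound site. The windows of 5 members described here that hold the NRF1 letters before the start are shown so that the shared core can be seen in its different settings, with the searched letters in capitals, on the strand of the gene.
Cycs, chr6:50566611-50566640, minus strand: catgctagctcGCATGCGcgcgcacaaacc
Sdhb, chr4:140961206-140961235, plus strand: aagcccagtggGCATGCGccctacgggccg
Cox6a1, chr5:115349100-115349129, minus strand: aggaacggggcGCATGCGcgctctcgctcc
Atp5g2, chr15:102671069-102671098, minus strand: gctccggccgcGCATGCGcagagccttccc
Atp5k, chr5:108434429-108434458, minus strand: ttcactgcggcGCATGCGcctttctggctt
The 12 members with the NRF1 letters ranged from −0.37 (Uqcr11) to 0.02 (Atp5l) in their difference, and 9 of them were lower in each brain. Of the 5 shown, Atp5k (−0.32) and Cycs (−0.28) lay below the median of the members, Sdhb (−0.22) and Cox6a1 (−0.17) above it, and Atp5g2 near 0 (0.02). Nrf1 itself was at 16.1, 21.8 and 18.9 RPKM in ULAs and at 15.4, 16.2 and 16.5 RPKM in DLAs, a log2 difference of 0.22 (adjusted p = 0.384), and Gabpa differed by 0.21 (adjusted p = 0.448). Yy1 differed by −0.09 (adjusted p = 0.805), Gabpb1 by −0.0072 and Gabpb2 by 0.08, so these regulators had no common sign.

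Messenger RNA length was considered because the mRNAs of the tested members are short (median 686.5 bases, against 2444 over all tested rows). The difference between the layers also depended on length in all rows. Over all tested rows, the Spearman rho of the difference with length was 0.21 in brain 1, 0.37 in brain 2 and 0.10 in brain 3, the same order of brains as for the members. Among the members it was 0.11, and their medians were −0.24 up to 1000 bases (55 members), −0.22 over 1000 and up to 2000 bases (22 members) and −0.24 over 2000 bases (7 members). The medians of the other rows in these bands were −0.10, −0.12 and 0.02. All 7 members over 2000 bases were lower in each brain, against 15.4% of the other rows of that length. The 7 include the subunits Sdha (2859 bases) and Atp5a1 (2431 bases), but also Sdhaf2 and Atp5sl, which are no subunits. Ndufa11 counts among them at 2661 bases, although its transcript used for shared words has 545. The rows compared were not matched in level (median 32.1 RPKM for the 7, 7.60 for the others). Other rows over 1000 bases with a mean RPKM of at least 50 had a median of −0.07, and 32.8% were lower in each brain.

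Short and abundant mRNAs of other kinds also lay low. The 338 other rows of up to 1000 bases with a mean RPKM of at least 50 had a median of −0.18, and 53.0% were lower in each brain. The 203 of them with a RefSeq mRNA accession had a median of −0.22, and both bands were set after the values had been seen. Of these 203 rows, 73.4% were lower in each brain, and the medians were −0.23, −0.34 and −0.11 in brains 1 to 3. When a smooth curve of the ratio on length was subtracted in each brain, the median of the members moved from −0.24 to −0.12. After that step 78 of the 84 differences remained below 0, and 42 of the 84 members were lower in each brain, against 18.4% of all tested rows. At an unadjusted p under 0.05, 11 members were then lower, as were 898 of the 13999 tested rows. The median of brain 3 was then −0.02, and those of brains 1 and 2 were −0.13 and −0.22.

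**Figure D4:**
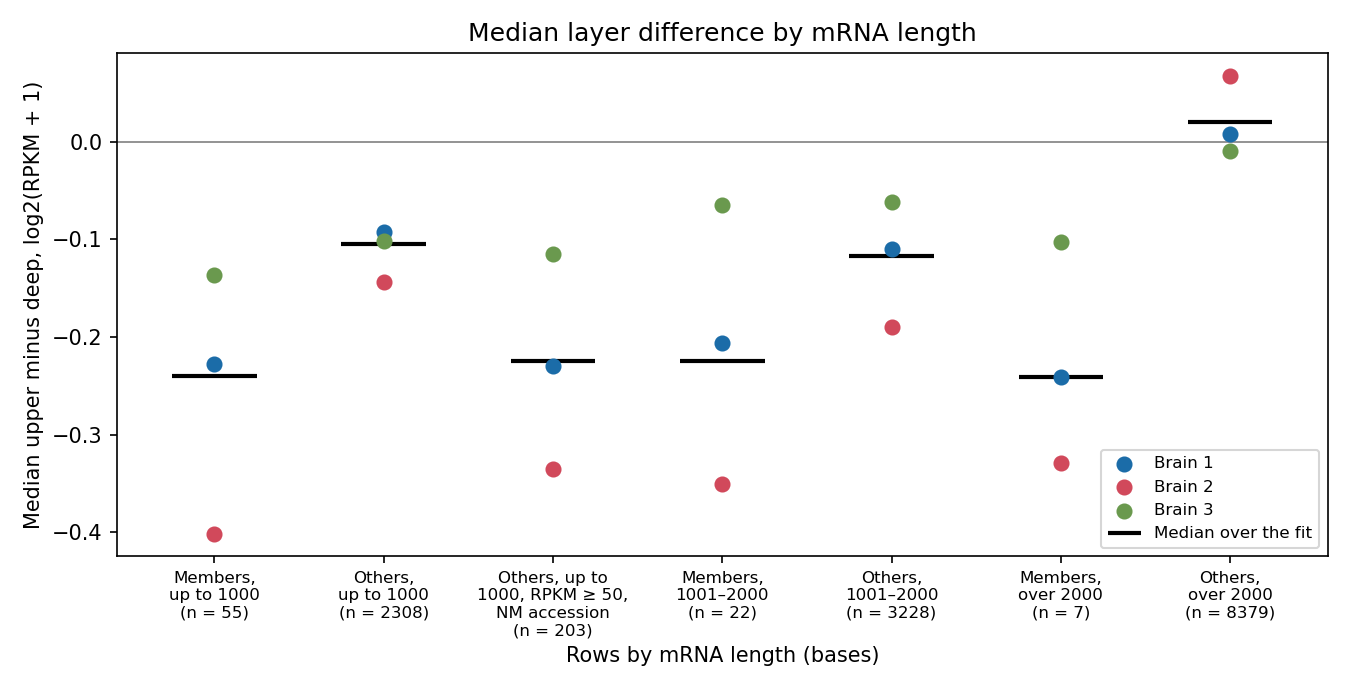
Median difference between ULAs and DLAs on the log2(RPKM + 1) scale by mRNA length, for members and other tested rows, with 1 point per brain and a black line at the median over the fit. Members lie between −0.22 and −0.24 in all 3 bands, while other rows lie at −0.10, −0.12 and 0.02, and short abundant rows with a RefSeq mRNA accession at −0.22.

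The mitochondrially encoded subunits of the same complexes lay higher in ULAs in brains 1 and 2. In brain 3 they lay lower, as the nuclear ones did. Of their 13 rows, 7 had values to test (Nd1, Nd2, Co1, Nd4, Nd5, Nd6 and Cytb), and the other 6 were listed at or near 0 in all libraries. The sum of the 13 rows was 6046, 5857 and 6937 RPKM in ULAs and 4985, 4349 and 7644 RPKM in DLAs, so that it was higher in ULAs in brains 1 and 2 and lower in brain 3. The layers overlapped, with the DLAs of brain 3 highest and those of brain 2 lowest. The median log2 difference of the 7 rows was 0.23, made up of 0.30, 0.50 and −0.15 in brains 1 to 3, and 0 rows passed with limma in either direction. At an unadjusted p under 0.05, 1 row was higher (Nd5, 0.39, adjusted p = 0.248) and 0 lower. The median difference of the nuclear-encoded members was below 0 in each brain and lowest in brain 2, where the median difference of the mitochondrial rows was highest. The difference between the 2 sets of mRNAs was not tested.

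**Figure D5:**
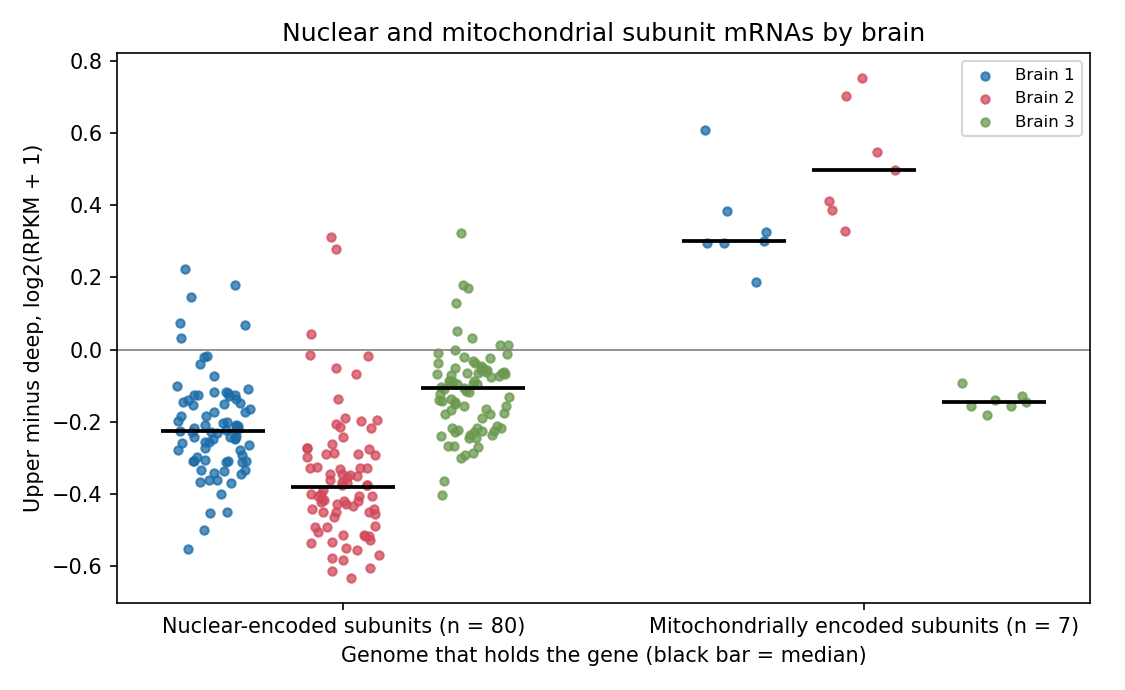
Difference between ULAs and DLAs on the log2(RPKM + 1) scale for 80 tested nuclear-encoded subunits and 7 mitochondrially encoded subunits in each brain, with a black bar at each median. The mitochondrial medians are 0.30 and 0.50 in brains 1 and 2 and −0.15 in brain 3, while the nuclear medians are below 0 in all 3 brains.

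Other mitochondrial gene lists from the nucleus were described in the same way, and 0 of their rows passed with limma in either direction. Their counts are to be read beside the shares of all tested rows, of which 23.2% were lower and 15.2% higher in each brain, and 10.8% were lower at an unadjusted p under 0.05. Among 76 proteins of the mitochondrial ribosome, which translates the mitochondrially encoded subunits, the median difference was −0.20, and 52 were lower in each brain (23 lower and 0 higher at an unadjusted p under 0.05). The import machinery, which brings nuclear-encoded subunits through the membranes, had a median of −0.22 over 24 mRNAs, with 12 lower and 3 higher in each brain (5 and 0). For 35 assembly factors of the complexes, a list that also holds the members Sdhaf1 and Sdhaf2, the median was −0.15, and 15 were lower and 2 higher in each brain (4 and 0, so that 11.4% were lower at that p, close to the share of all rows). The tricarboxylic acid cycle, which supplies NADH and succinate, had a median of −0.10 over 18 mRNAs, with 8 lower in each brain (4 and 0). In 14 regulators of mitochondrial biogenesis, the median was 0.10, and 0 were lower and 5 higher in each brain. At an unadjusted p under 0.05 there were 0 either way. The difference was below 0 for 5 of the 14, among them Ppargc1a (−0.10) and Tfam (−0.12). The median mRNA length was 1052 bases for the ribosome, 1181 for import, 1863 for assembly, 2261 for the cycle and 4257 for these regulators. The part of length in the medians of these lists was not tested. The coactivator Ppargc1a overlapped between the layers, with 28.8 to 44.1 RPKM in ULAs and 36.4 to 41.0 RPKM in DLAs. Related mRNAs that the symbol rule does not reach (Ndufab1, Atpif1, Usmg5 and the electron transfer flavoproteins Etfa, Etfb and Etfdh) had a median of −0.21, with 5 of 6 lower in each brain (2 and 0).

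Of the 4 rows that share a prefix but are no subunit, all were lower in each brain, with a median of −0.24. Exons of 17 members overlap another row of the table, for 1 of them (Sdhaf1) over at least 50% of its mRNA. Strand use in the counting is not given in the sources used here, so reads from such places cannot be told apart.

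The sorted cells carried astrocyte mRNAs at high levels in both layers, and other cell types entered at low levels that partly moved with the layer. The 10 astrocyte markers summed to 10790 to 11500 RPKM in ULAs and 9887 to 10890 RPKM in DLAs, and 1 of them (Gfap) passed as lower in ULAs. Neuronal markers summed to 7.46 to 7.85 and 5.88 to 8.16 RPKM (9 genes), precursor and endothelial markers to at most 1.48 RPKM in any library, microglial markers to 12.8 to 13.7 and 8.54 to 11.6 RPKM, and mural markers to 15.1 to 21.9 and 11.2 to 17.9 RPKM, with Rgs5 passing as higher in ULAs. Oligodendrocyte markers summed to 86.5 to 174.5 RPKM in ULAs and 173.8 to 270.9 RPKM in DLAs, and 5 of the 6 passed as lower in ULAs. The oligodendrocyte sum of the ULAs was 0.513, 0.434 and 0.644 times that of the DLAs in brains 1 to 3, so it was lowest in brain 2 and nearest to 1 in brain 3, the order also seen for the summed subunits. The 3 globin rows summed to at most 0.98 RPKM in ULAs and to 14.5 to 74.8 RPKM in DLAs, and all 3 passed as lower, with Hbb-b1 and Hbb-b2 listed at 0 in every ULA library. Oligodendrocyte and globin mRNAs thus moved with the layer in the same direction as the members, and their part in the differences of the members was not tested.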

How the data were processed

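The authors deposited 1 table of RPKM values (reads per kilobase of mRNA and M reads, truncated to 2 decimals) for 6 libraries of 36-base single reads, with the mRNA length and coordinates of each row. The submitters' processing notes name bcl2fastq 1.8.4, CASAVA 1.8.2 and build mm9; the aligner and the counting program are not given in the sources used here. The values are relative to each library's total, so a change in a few abundant mRNAs moves all others.

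Members and gene lists were chosen with earlier results of these data known. Rows that reached a mean RPKM of 1 were compared as log2(RPKM + 1) with limma 3.58.1 in R 4.3.3 (lmFit, eBayes with a trend, 2-sided), with layer and brain as terms and Benjamini-Hochberg adjustment over 13999 rows; a fold on this scale understates that of low mRNAs. The study paired the layers by brain, and libraries of the same number deviated together (r across rows 0.42, 0.33 and 0.34, against −0.20 to −0.16 otherwise). An exact permutation test over 3 pairs cannot go below p = 0.25. Named members were the highest mRNA and the largest difference of each complex, the isoform sets, complex II and the cytochromes. Shared words were read from GENCODE vM21 transcripts, and promoters from RefSeq. Python 3.11.15, pandas 2.3.3 and matplotlib 3.10.9 were used. The alternatives were no brain term, another pseudocount, filter, scaling or variance trend, a length correction, subunits only, and each brain left out. A background without brain 3 and the band of short abundant rows were added after seeing the data.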

Additional observations from a re-analysis of the deposited data

How the results depend on the processing

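The median difference of the members stayed between −0.31 and −0.12 under all alternatives run. The count of members lower in ULAs past the threshold was 0 with all brains, 1 with a mean RPKM of at least 5, and 0 to 18 with 1 brain left out, 18 of them without brain 3. The count lower in each brain was 72. It was 68 among subunits only, 66 after median centring, 58 after quantile normalization and 42 after the length correction. Members higher in each remaining brain numbered 0 to 3 with 1 brain left out.

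Over all tested rows, 100 were higher and 128 lower in ULAs. Without the replicate block that pairs layers by brain these counts were 23 and 18, without a filter 0 and 0 (so no call could be made), and without the variance trend 65 and 79. Quantile normalization gave 138 and 103, and the length correction 74 and 70. With 1 brain left out they ranged from 104 to 426 higher and from 126 to 687 lower, the highest counts coming without brain 3. The fit without the pairing called 0 members and changed no other call among them. The causes were not tested.

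Of 285 alternative values for 26 named members, 269 kept their direction and their side of the threshold, and 8 passed it, 7 of them without brain 3 and 1 (Ndufs5) at a mean RPKM of at least 5. The other 8 changed sign, in mRNAs of differences near 0. After the length correction Cox4i2 was 0.0598 and Cox6b2 0.03097. With 1 brain left out, Atp5g2 ranged from −0.1075 to 0.1756, Cox4i2 from −0.2161 to 0.1277, Cox6b2 from −0.23 to 0.1584 and Cox7a1 from −0.07545 to 0.1786. With 3 brains, differences of about 0.22 and less lay within the interval of a single mRNA.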

Other observations

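The 6 mitochondrially encoded rows listed at or near 0 (Co2, Atp8, Atp6, Co3, Nd3 and Nd4l) lie next to each other on the mitochondrial genome, from base 7013 to base 10173 of the coordinates in the table. The highest value in this stretch was 0.08 RPKM, for Nd3 in the DLAs of brain 3. The rows on either side, Co1 and Nd4, were at 569.9 to 1083 RPKM and 273.8 to 533.4 RPKM over the 6 libraries.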
